A study of Arabidopsis thaliana with 15 samples.

Results

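This account covers the emf1 mutant against wild type (WT) in messenger RNA libraries of whole Arabidopsis thaliana seedlings. Its members are the 3 libraries labelled emf1 and the 3 labelled WT, chosen by genotype label, 6 of the 15 libraries of the series. The wild type and every mutant were of the Col-0 ecotype, and seedlings were taken whole at an age of 3 weeks from reduced-strength MS medium, with 8 h of light and 16 h of darkness a day. The emf1 label names no allele. The 9 libraries outside the comparison are 3 each of the labels lhp1, ebs shl and ebs shl lhp1. The last of these, called the labelled triple mutant below, shares an RNA kit with emf1. RNA of emf1 and of the labelled triple mutant was isolated with the miRNeasy Micro kit, and RNA of WT with the RNeasy Plus Mini kit. Kit and genotype can therefore not be told apart in the comparison with WT, and the values of the labelled triple mutant are given beside the main results as a second genotype with the same kit. Nothing in the labels says how many plants went into a library. The p-values of the main fit measure the spread between biological repeats. That spread was pooled for each gene over all 5 genotypes, not only emf1 and WT.

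EMF1 (EMBRYONIC FLOWER 1) is a plant-specific protein that works with Polycomb group complexes, which keep developmental genes silent through methyl marks on histone H3 and ubiquitin marks on histone H2A. Plants that lack EMF1 function are known for skipping rosette growth, for staying small and for forming flower-like organs soon after germination, and floral organ genes and seed genes are among the known targets of this silencing. EBS, SHL and LHP1, the proteins named in the other labels, read histone H3 methylation and act in the same repression.

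Counts per library were 14950561 to 15826822 in WT and 13426771 to 15850119 in emf1, so that a single count stood for 0.0604 to 0.0889 CPM, the unit of level below. CPM is the count scaled to a common library size, with TMM factors (a trimmed mean of ratios between libraries), and a mean ± SD is over the 3 libraries of a genotype. The emf1 libraries did not form a tight group. Principal component 1 of log CPM over the 15 libraries took 69.3% of the variance, and on it the WT libraries stood at -89.9, -69.8 and -81, emf1 replicates 1 and 3 at 127 and 133, and emf1 replicate 2 at 78.1. The libraries numbered 2 of both genotypes thus lay nearest to the other genotype. On the same component the labelled triple mutant, with the kit of emf1, stood at 116, 147 and 103. The lhp1 and ebs shl libraries, with the kit of WT, stood at -92.4 to -56.5. Component 1 thus parted the 15 libraries by kit, and kit and genotype cannot be told apart on it. Component 2 (13.1%) parted emf1, at -69.6 to -53.6, from the labelled triple mutant, at 51.7 to 60.4. Among 4358 genes that were at least 2-fold lower in emf1, replicate 2 was the highest of the emf1 libraries for 67.9%. Among 2260 genes that were at least 2-fold higher, WT replicate 2 was the highest of the WT libraries for 58.4%. Values without emf1 replicate 2 or WT replicate 2 are given below where they differ by more than 1.5 times, or where a call is lost.

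The EMF1 transcript itself (AT5G11530) stood at 27.5, 28.7 and 27.7 CPM in the WT libraries and at 23.9, 21.8 and 22.6 in the emf1 libraries. The groups did not overlap, but the difference was small (-0.30 on the log2 scale, adjusted p = 0.0073, edgeR quasi-likelihood with Benjamini-Hochberg adjustment). It did not pass without WT replicate 2 (adjusted p = 0.0959, edgeR quasi-likelihood) or without emf1 replicate 2 (adjusted p = 0.131, edgeR quasi-likelihood), so the transcript level does not check the label. Of the other chromatin readers named in the series, SHL (AT4G39100) was at 38.1, 43.6 and 41.2 CPM in WT and at 77.6, 68.3 and 80.5 in emf1, a rise of 0.88 on the log2 scale. LHP1 (AT5G17690) rose by 0.41, a call that was lost with scaling by library totals (0.08, adjusted p = 0.466, edgeR quasi-likelihood). EBS (AT4G22140) stood at 24 to 27.3 CPM in WT and 22.6 to 25.6 in emf1 and did not pass the test. In the labelled triple mutant EBS was low, at 1.99 to 2.51 CPM, but LHP1 was at 19.3 to 23.3 CPM and SHL at 160 to 222, not below WT, so these transcripts do not check that label. Whether reads were counted by strand is not given in the sources used here. The level of LHP1 and of other genes said below to have a tested neighbour over them on the other strand is therefore uncertain.

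Most measured genes differed between emf1 and WT. Of 20477 genes with enough counts to be tested, 13231 passed an adjusted p of 0.05 in edgeR's quasi-likelihood test, which is 64.6% (67.7% at an unadjusted p under 0.05), with 6284 higher in emf1 (30.7%) and 6947 lower (33.9%). A change of at least 2-fold was called for 32.3%, with 2260 genes higher (11%) and 4358 lower (21.3%). Falls also outnumbered rises among the larger changes, with 2446 genes called more than 4-fold lower and 875 more than 4-fold higher. The libraries of the 2 genotypes did not overlap for 14049 genes (68.6%). The balance of directions depended on the scaling. TMM left the median log2 fold change of all tested genes at -0.03, upper-quartile scaling moved it to -0.20 with 4796 higher and 8398 lower, and library totals moved it to -0.36 with 3631 higher and 10029 lower. Changes are reported relative to the TMM median, and a small change in one direction is marked below where another scaling ended it. Against the labelled triple mutant, on the same kit, 9022 genes passed (44.1%), 4193 higher in emf1 (20.5%) and 4829 lower (23.6%).

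The direction of the calls went with abundance. Of the 231 genes with a mean of 500 CPM or more over the 6 libraries, 65.8% were higher in emf1 and 7.79% lower, with a median log2 fold change of 0.42. Of the 5024 genes between 0.5 and 5 CPM, 11.8% were higher and 51.3% lower, with a median of -0.86. Genes between 5 and 50 CPM were near balance, at 33.4% higher and 30.2% lower. The 100 most abundant genes of each library held 24% to 25.5% of the counts in WT and 27% to 28.6% in emf1.

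**Figure D1:**
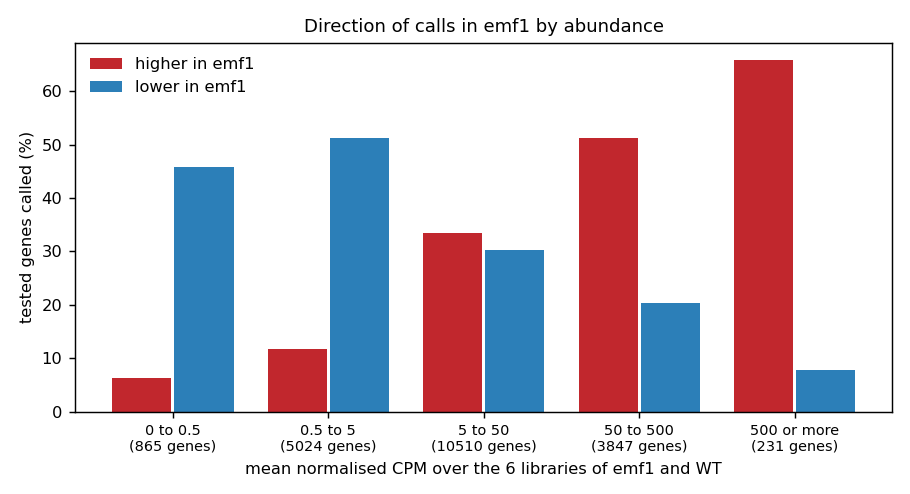
Percentage of tested genes called higher (red) or lower (blue) in emf1 than in WT, by mean normalised CPM over the 6 libraries of the 2 genotypes, with the number of genes under each pair of bars. Calls are at an adjusted p under 0.05 (edgeR quasi-likelihood), and the share called higher goes from 6.24% in the lowest to 65.8% in the highest class while the share called lower goes from 45.9% to 7.79%.

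The genes were then read by role in 30 lists, written with earlier results of these data known, that range from Polycomb components and floral identity to photosynthesis, stress, metabolism and tissue markers. Counts below are of members that passed the test over all genes, to be read against the 30.7% called higher and 33.9% called lower among all tested genes. Those shares changed with abundance, as given above. Medians are of log2 fold changes over the members tested, against -0.03 for all genes. Because RNA came from whole seedlings, a smaller number of cells of a type and less RNA per cell cannot be told apart.

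**Figure D2:**
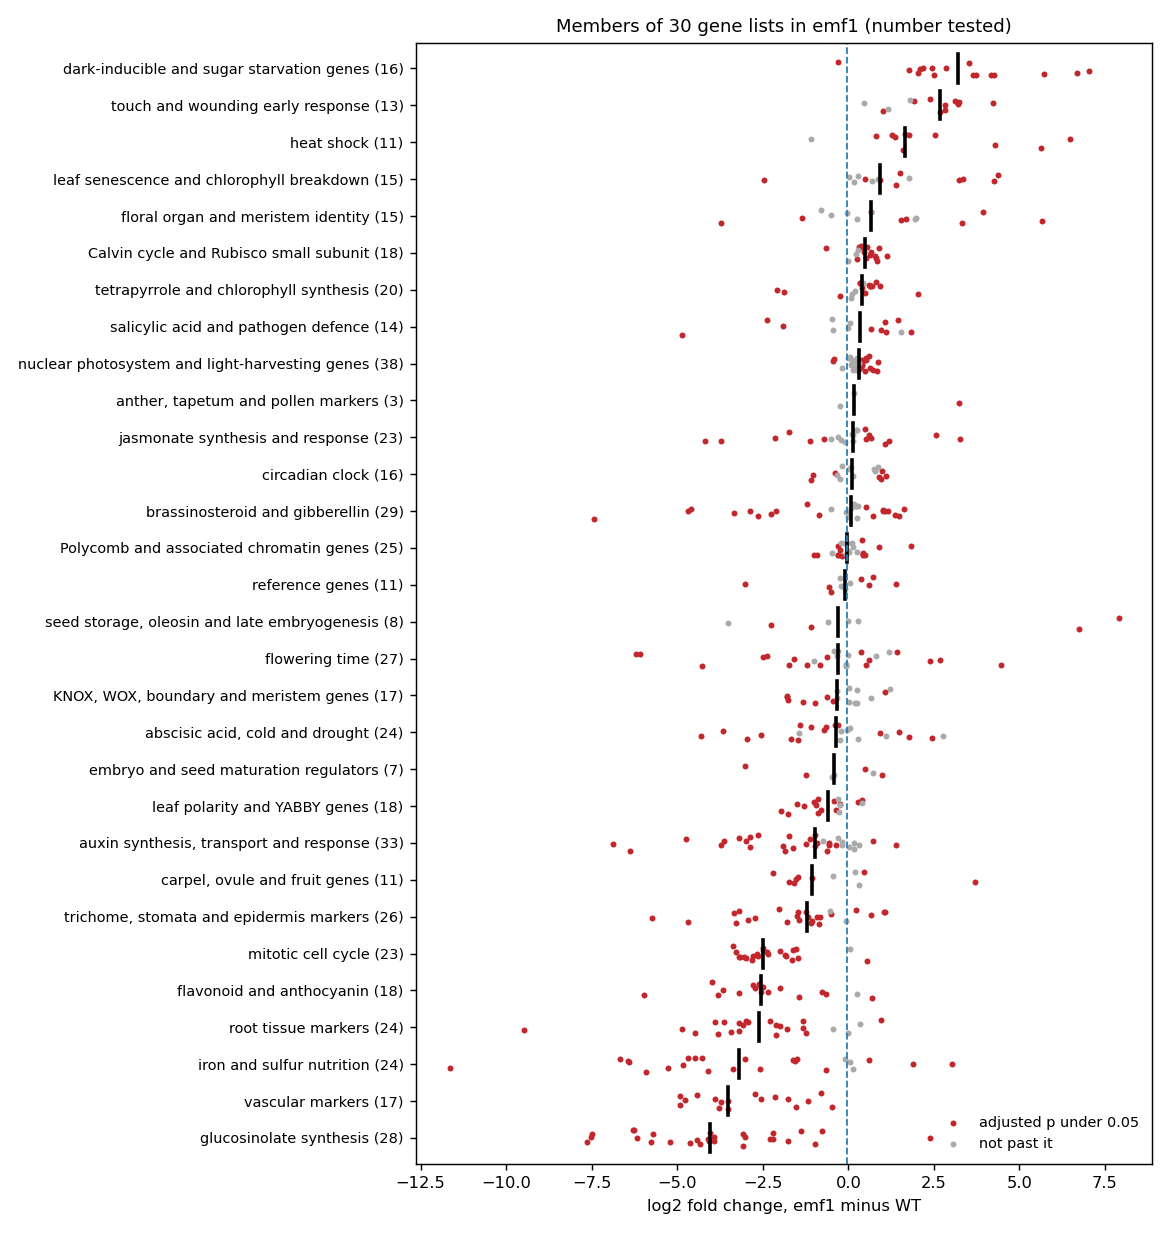
Log2 fold change of emf1 against WT for every tested member of 30 gene lists, ordered by list median (black bar), with the number tested in parentheses. Red points passed an adjusted p of 0.05 (edgeR quasi-likelihood) and grey points did not. The dashed line is the median of all tested genes. Dark-inducible and sugar starvation genes have the highest median (3.19) and glucosinolate genes the lowest (-4.05).

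Polycomb and associated chromatin genes themselves were near balance, with 7 of 25 tested members higher, 7 lower and a median of -0.05. The number lower was 2 without emf1 replicate 2 and 3 without WT replicate 2, and with library totals the split was 1 higher and 15 lower. CLF (AT2G23380), a histone methyltransferase subunit of Polycomb repressive complex 2, stood at 32.1, 27.9 and 29.5 CPM in WT and at 13.4, 18.1 and 15.6 in emf1. The libraries did not overlap, and the fall was 1.9-fold (adjusted p = 1.54e-05, edgeR quasi-likelihood). Its paralog SWN (AT4G02020) moved the other way, from 43.6 ± 0.16 to 60.7 ± 5.68 CPM, a call that library totals ended (adjusted p = 0.156, edgeR quasi-likelihood). ATX1 (AT2G31650), a Trithorax-type histone methyltransferase that opposes Polycomb silencing, fell from 14.6 ± 2.13 to 7.31 ± 2.76 CPM. The largest rise of the list was that of MEA (AT1G02580), a seed-specific relative of CLF, at 0.362, 0.061 and 0.251 CPM in WT and 0.695, 0.873 and 0.889 in emf1. It rested on few counts and was lost in 5 of the 6 fits that left out a library (adjusted p = 0.0617 to 0.125, edgeR quasi-likelihood). CLF has a tested neighbour over it on the other strand.

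Among floral organ identity genes, the class B gene PI rose most, while its partner and the class C gene stayed near 0. PI (AT5G20240), a MADS-box gene that specifies petals and stamens, stood at 2.66, 3.78 and 2.83 CPM in the WT libraries and at 171, 137 and 166 in the emf1 libraries. Every emf1 library was far above every WT library, and the ratio of means was 51.1 (log2 fold change 5.67, SE 0.20, adjusted p = 1.77e-09, edgeR quasi-likelihood). In the labelled triple mutant PI was higher again, at 302 to 374 CPM. BCB (AT5G20230) and DIN10 (AT5G20250), next to PI by locus number, also rose in emf1, as given below. Whether these rises are linked was not tested. AP3 (AT3G54340), the partner of PI in petals and stamens, stayed low. It stood at 0.0604, 0.061 and 0.0628 CPM in WT, a single count in each library, and at 0.309, 1.02 and 0.711 in emf1, a ratio of 11.1 with a counting interval of 3.42 to 57.6. That call was lost in 5 of the 6 fits without 1 library of the 2 genotypes (adjusted p up to 0.103, edgeR quasi-likelihood). The labelled triple mutant held 4.65 to 24.1 CPM of AP3.

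Class E genes, whose products join the other MADS proteins in floral complexes, were called higher at low levels, but SEP1, SEP2 and SEP3 did not pass with limma-voom (adjusted p = 0.0976, 0.161 and 0.0759). SEP3 (AT1G24260) stood at 1.63, 1.28 and 1.07 CPM in WT and at 3.4, 4 and 4.27 in emf1, and SEP4 (AT2G03710) went from 11.7 ± 1.81 to 18.6 ± 0.84 CPM. SEP1 (AT5G15800) was at 0.328 ± 0.0728 in WT and 1.04 ± 0.58 in emf1, with emf1 replicate 2 the highest at 1.67, and did not pass without that library (adjusted p = 0.055, edgeR quasi-likelihood). The call of SEP2 (AT3G02310) rested on emf1 replicate 2, at 1.82 CPM against 0.309 and 0 in the other emf1 libraries, and was lost without it (adjusted p = 0.215, edgeR quasi-likelihood). SEP1 has a tested neighbour over it on the other strand. AG (AT4G18960), the class C gene of stamens and carpels and a known Polycomb target, stood at 0.0604, 0.061 and 0.126 CPM in WT and 0.154, 0.655 and 0.178 in emf1 and did not pass the test (adjusted p = 0.164, edgeR quasi-likelihood). AP1 (AT1G69120), which specifies floral meristems, was at 0.0203 CPM in WT and 0.102 in emf1 (adjusted p = 0.222, edgeR quasi-likelihood). LFY (AT5G61850), the meristem identity regulator above these genes, had 0.143 ± 0.0931 CPM in WT against 0.0782 ± 0.0734 in emf1.

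The floral identity list as a whole had 6 of 15 tested members higher and 2 lower, with a median of 0.67, and 5 of its 20 members had too few counts to be tested. Only 3 members were called higher without emf1 replicate 2 and 2 with limma-voom. The count filter took in all 5 genotypes, so members near 0 in WT and emf1, such as AP1, entered through another genotype. Members near 0 counts in WT could hardly be called lower. The 2 that fell are AP2 (AT4G36920), a class A gene that also delays flowering, and FUL (AT5G60910), a MADS-box gene of fruit and meristems. AP2 stood at 21.9, 13.9 and 13.6 CPM in WT and at 5.63, 6.84 and 6.93 in emf1. FUL stood at 1.15, 0.977 and 1.32 CPM in WT against a single count in each emf1 library, 14.4-fold lower with a counting interval of 4.71 to 72.4. Against the labelled triple mutant, 11 of the 15 were lower in emf1 and 0 higher. For members that passed the filter through their level in that genotype, this direction was fixed in advance.

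**Figure D3:**
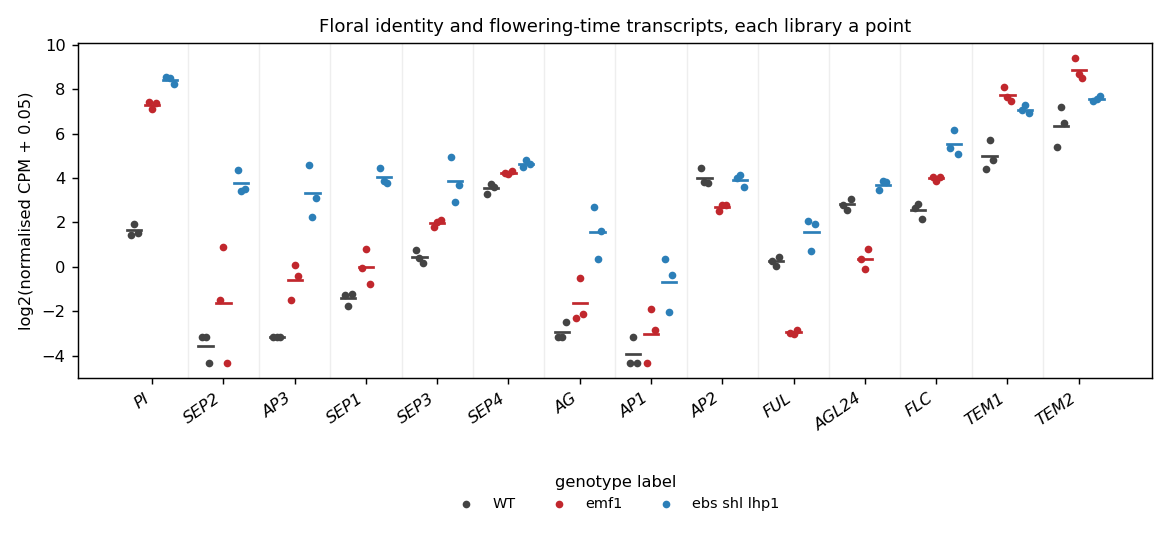
Normalised CPM of floral identity and flowering-time genes on a log2 scale after adding 0.05, with 1 point per library and a bar at the mean of the log values for WT (grey), emf1 (red) and the labelled triple mutant (blue). PI is high in all emf1 libraries, AP3, SEP1, SEP2, AG and AP1 stay near or below 2 CPM in emf1, and FUL and AGL24 lie below WT in every emf1 library.

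Flowering-time genes moved both ways, with 7 of 27 tested members higher and 10 lower and a median of -0.30. With library totals the split was 4 higher and 16 lower. TEM1 (AT1G25560) and TEM2 (AT1G68840), a pair of related repressors of the florigen gene FT, rose. TEM1 stood at 21.1, 52.1 and 28.1 CPM in WT and at 276, 199 and 175 in emf1, and TEM2 at 41.5, 146 and 88.7 in WT and 679, 410 and 362 in emf1. WT replicate 2 was the highest WT library for both, and the groups did not overlap. FLC (AT5G10140), the MADS-box repressor of the vernalization pathway, rose from 5.88 ± 1.3 to 15.8 ± 0.965 CPM. FT itself (AT1G65480) had 0.0411 ± 0.0356 CPM in WT against 0.0772 ± 0.134 in emf1, where emf1 replicates 2 and 3 held no count. AGL71 (AT5G51870), a relative of SOC1, had no count in WT and 0.0772, 0.437 and 0 CPM in emf1, a call that was lost without emf1 replicate 2 (adjusted p = 0.181, edgeR quasi-likelihood).

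Among activators of flowering, SOC1 (AT2G45660) was at 16.7, 26 and 25.5 CPM in WT and 38.1, 26 and 40.2 in emf1, so that emf1 replicate 2 overlapped WT (0.61 on the log2 scale, adjusted p = 0.0111, edgeR quasi-likelihood). SOC1 did not pass without WT replicate 1 (adjusted p = 0.0529, edgeR quasi-likelihood) or with library totals (adjusted p = 0.193, edgeR quasi-likelihood). AGL24 and AGL14, also MADS-box genes, fell. AGL24 (AT4G24540), which acts with SOC1 in the inflorescence meristem, stood at 6.89, 5.92 and 8.23 CPM in WT and at 1.24, 0.873 and 1.69 in emf1, a fall of 5.54-fold. AGL14 (AT4G11880) fell from 4.17 ± 0.991 CPM to counts in emf1 replicate 2 only (0.146 CPM), 86-fold lower with a counting interval of 21.6 to 658. The fitted log2 fold change of AGL14 was -6.09 with all libraries and -8.91 without that replicate. In the labelled triple mutant AGL24 and AGL14 stood at 13.1 ± 1.98 and 3.93 ± 0.68 CPM. SPL9 (AT2G42200), an age-pathway activator, fell 5.21-fold to 1.42 ± 0.183 CPM. TOE1 (AT2G28550), an AP2-type repressor of flowering, fell 2.99-fold to 35.8 ± 6.32 CPM.

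A small number of seed genes rose by large folds. PAP85 (AT3G22640), a vicilin-like seed storage protein gene, stood at 0.121, 0 and 0.126 CPM in WT and at 17.4, 19.9 and 28 in emf1, 265-fold higher. M17 (AT2G41260), a late embryogenesis abundant gene, stood at 0, 0.671 and 0.251 CPM in WT and at 31.4, 48.8 and 20.8 in emf1, 110-fold higher. The fitted log2 fold change of M17 was 6.74, and 8.07 without WT replicate 2. PAP85 and M17 were the 2 of 8 tested seed genes that rose. Of the 24 members, 16 had too few counts to be tested, and 6 held no count in any emf1 or WT library. EM1 (AT3G51810), a late embryogenesis gene, was among these 6 and stood at 0.837 to 3.51 CPM in the labelled triple mutant. The oleosin gene OLEO4 (AT3G27660) and the dehydrin gene RAB18 (AT5G66400) were the 2 that fell, from 1.56 ± 0.27 to 0.319 ± 0.21 CPM and from 12.9 ± 4.77 to 6.1 ± 0.748 CPM. RAB18 has a tested neighbour over it on the other strand.

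Regulators of embryos and of seed maturation had 2 higher and 2 lower of 7 tested members, and 0 higher with library totals. BBM (AT5G17430), an AP2-type gene of embryos and root meristems, stood at 3.2, 2.26 and 2.95 CPM in WT and 0.154, 0.582 and 0.267 in emf1. Its log2 fold change was -3.01 with all libraries and -3.62 without emf1 replicate 2. WRI1 (AT3G54320), a regulator of oil synthesis, fell from 12.5 ± 0.92 to 5.23 ± 0.829 CPM. DOG1 (AT5G45830), a seed dormancy gene, was at 1.98 ± 0.785 CPM in WT and 3.93 ± 1.61 in emf1, a rise that did not pass without WT replicate 1, WT replicate 3 or emf1 replicate 3 (adjusted p = 0.0589 to 0.111, edgeR quasi-likelihood). The other rise was AGL18 (AT3G57390), a MADS-box gene, from 11.4 ± 0.312 to 15.9 ± 0.564 CPM, which library totals ended (adjusted p = 0.319, edgeR quasi-likelihood).

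Of 17 tested KNOX, WOX, boundary and meristem genes 1 rose and 7 fell (median -0.33), and of 18 leaf polarity and YABBY genes 2 rose and 12 fell (median -0.61). In the meristem list 4 fell in each of the fits without WT replicate 1, WT replicate 3, emf1 replicate 1 or emf1 replicate 3, and its median was 0.08 without WT replicate 2. TCP4 (AT3G15030), which ends cell proliferation in leaves, stood at 66.9, 39.1 and 54.2 CPM in WT and at 17.4, 15.1 and 8.44 in emf1, 3.92-fold lower. REV (AT5G60690), a homeodomain gene of the upper leaf side and of vascular tissue, stood at 51.6, 46.5 and 49.9 CPM in WT and at 16.1, 17.1 and 10.3 in emf1, with a tested neighbour over it on the other strand. WOX4 (AT1G46480), which maintains the vascular cambium, fell from 3.49 ± 0.93 to 0.977 ± 0.383 CPM. The rise was that of CUC2 (AT5G53950), an organ boundary gene, from 0.821 ± 0.215 to 1.73 ± 0.34 CPM. It did not pass without WT replicate 1, WT replicate 2 or emf1 replicate 2 (adjusted p = 0.0556 to 0.068, edgeR quasi-likelihood) or with upper-quartile scaling or library totals. Of 11 tested carpel, ovule and fruit genes 2 rose and 6 fell (1 to 3 higher with a library left out), among the latter NGA1 (AT2G46870), a regulator of style and leaf margin growth, from 21.9 ± 2.24 to 4.72 ± 0.811 CPM. SPT (AT4G36930), a carpel margin gene, fell from 4.54 ± 0.517 to 1.57 ± 0.14 CPM.

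Genes induced by darkness and by sugar shortage rose together and gave the highest list median. Of 16 members, all tested, 15 rose and 1 fell, with a median log2 fold change of 3.19. All 15 rises were at least 2-fold, and the fall was that of the kinase subunit gene SnRK1.1 (AT3G01090), from 42.9 ± 3.8 to 34.6 ± 2.79 CPM. That call was lost without WT replicate 2, WT replicate 3, emf1 replicate 1 or emf1 replicate 2 (adjusted p = 0.0531 to 0.291, edgeR quasi-likelihood). DIN10 (AT5G20250), a raffinose synthase family gene, stood at 44.8, 436 and 83.8 CPM in WT and at 2390, 3010 and 4840 in emf1, 18.1-fold higher. DIN6 (AT3G47340), the asparagine synthetase gene ASN1, stood at 22.8, 208 and 52.1 CPM in WT and at 679, 1010 and 1810 in emf1. WT replicate 2 was the highest WT library for both and still lay below every emf1 library. Without it the log2 fold change of DIN10 went from 4.18 to 5.80 and that of DIN6 from 3.63 to 5.04. BCAT2 (AT1G10070), which acts in branched-chain amino acid metabolism, stood at 2.17, 2.93 and 1.82 CPM in WT and 134, 169 and 405 in emf1, 102-fold higher. Its log2 fold change of 6.67 was 6.04 without emf1 replicate 3.

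DIN11 (AT3G49620), an oxygenase family gene, rose from 0.0816 ± 0.034 to 11.7 ± 10.1 CPM, with 5.48, 23.4 and 6.13 CPM in the emf1 libraries and a log2 fold change of 7.02 (6.09 without emf1 replicate 2). BGAL4 (AT5G56870), a beta-galactosidase gene, stood at 23.7, 58.8 and 22.6 CPM in WT and reached 1410, 1410 and 2690 in emf1, with a log2 fold change of 5.71 (6.38 without WT replicate 2). SEN1 (AT4G35770), a dark-induced senescence marker, was at 12.7, 73.9 and 27.3 CPM in WT and 499, 542 and 1110 in emf1, 4.24 on the log2 scale (5.24 without WT replicate 2). In the labelled triple mutant these genes were also high, with DIN10 at 3580 to 5280 CPM, SEN1 at 967 to 1360 and BCAT2 at 351 to 486, and 1 of the 16 members was higher and 5 lower in emf1 than there. The list's summed level was 334 to 1610 CPM in the WT libraries, 7120 to 13800 in emf1 and 10700 to 14600 in the labelled triple mutant. Both of these genotypes came from the other RNA kit, so that kit and genotype cannot be told apart for this list. BCAT2 and BGAL4 have a tested neighbour over them on the other strand.

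Of 15 tested leaf senescence and chlorophyll breakdown genes 8 rose and 1 fell (median 0.91). ORE1 (AT5G39610), a NAC regulator of leaf ageing, stood at 3.26, 3.48 and 7.66 CPM in WT and at 61.8, 38.6 and 44.8 in emf1, 10.1-fold higher. NYC1 (AT4G13250), a chlorophyll b reductase gene, rose from 72.2 ± 6.37 to 204 ± 29.4 CPM. SAG29 (AT5G13170), a sugar transporter gene of the SWEET family, is the 1 that fell, from 2.05 ± 0.698 to 0.352 ± 0.248 CPM. Outside the lists, ICL (AT3G21720), isocitrate lyase of the glyoxylate cycle, stood at 1.69, 2.08 and 0.565 CPM in WT and at 131, 83.2 and 156 in emf1, 85.5-fold higher. PMT6 (AT4G36670), of the polyol and monosaccharide transporter family, went from 6.34, 12.5 and 8.41 CPM in WT to 833, 558 and 902 in emf1, 84.3-fold higher. Both were also high in the labelled triple mutant, at 99.2 to 202 and 443 to 599 CPM.

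Early touch and wounding genes rose in 10 of 13 tested members and fell in 0, with a median of 2.68. With a library left out fewer rises passed, 5 without emf1 replicate 1 and 6 without WT replicate 3. WRKY40 (AT1G80840), a transcription factor gene induced by wounding and pathogens, stood at 1.09, 2.87 and 2.01 CPM in WT and 64.5, 18.3 and 30 in emf1. Its log2 fold change of 4.24 was 3.61 without emf1 replicate 1, and it has a tested neighbour over it on the other strand. TCH3 (AT2G41100), a calmodulin-like gene, was at 19, 110 and 24.1 CPM in WT and 477, 250 and 359 in emf1, with a log2 fold change of 2.83 (4.15 without WT replicate 2). ZAT12 (AT5G59820), a zinc finger gene of oxidative stress, went from 3.93 ± 0.171 to 28.1 ± 8.2 CPM. In the labelled triple mutant the same genes were high and uneven, with WRKY40 at 12.5, 26.3 and 134 CPM, and 0 of the 13 members differed there from emf1 in either direction.

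The heat shock list had 10 of 11 tested members higher and 0 lower (median 1.64), but emf1 replicate 2 stood apart. With limma-voom 10 were higher and 1 lower. Among 16 tested genes whose symbols open with HSP, 7 were higher and 2 lower (median 0.23). HSP17.6A (AT5G12030), a small heat shock protein gene, was at 0.121, 0.122 and 0.251 CPM in WT and at 6.18, 37.4 and 2.31 in emf1, a log2 fold change of 6.48 with all libraries and 4.73 without emf1 replicate 2. HSP90.1 (AT5G52640), a chaperone gene, was at 37.6, 74.1 and 23.5 CPM in WT and at 193, 472 and 115 in emf1, with 2.53 on the log2 scale (1.86 without emf1 replicate 2 and 3.15 without WT replicate 2). Without emf1 replicate 2, 6 of the 11 members were called higher, and 6 without WT replicate 3. Of the 11, 4 were higher in emf1 than in the labelled triple mutant and 1 lower. HSFA2 (AT2G26150), the heat shock factor of sustained heat responses, was at 5.2, 33.1 and 5.4 CPM in WT and 39, 77 and 20.3 in emf1. The groups overlapped, and its call was lost without emf1 replicate 2, WT replicate 1 or WT replicate 3 (adjusted p = 0.147, 0.119 and 0.121, edgeR quasi-likelihood) and with library totals. Without WT replicate 2 its log2 fold change went from 1.64 to 3.16.

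**Figure D4:**
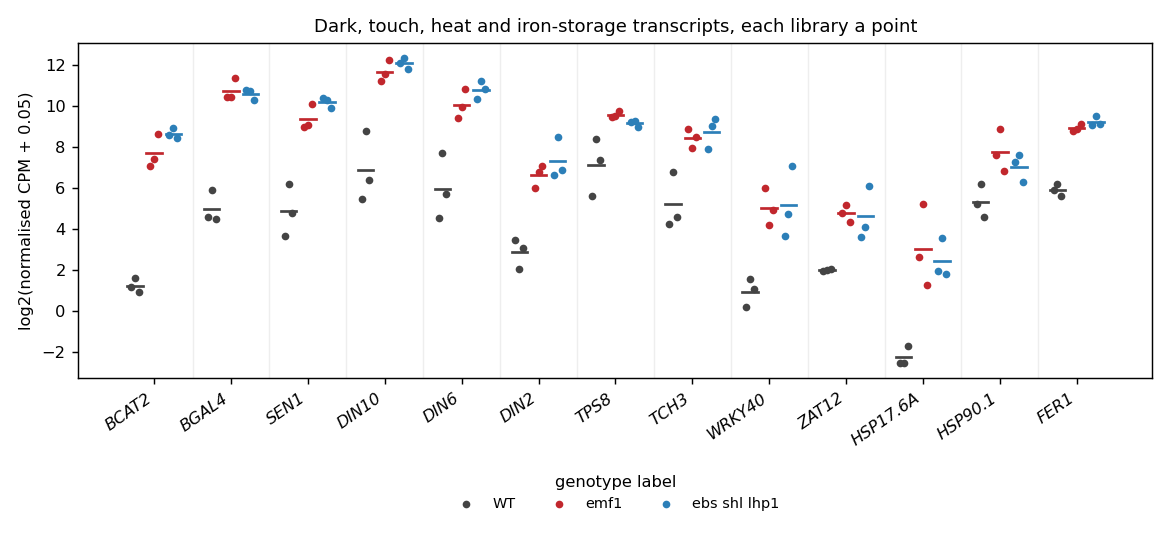
Normalised CPM of dark and sugar starvation genes (BCAT2 to TPS8), touch genes (TCH3 to ZAT12), the heat shock genes HSP17.6A and HSP90.1 and the ferritin gene FER1, on a log2 scale after adding 0.05, with 1 point per library and a bar at the mean of the log values. Every emf1 library (red) lies above every WT library (grey) for each gene plotted, and WT replicate 2 is the highest grey point for DIN10, DIN6 and TCH3. The labelled triple mutant is in blue.

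Photosynthesis transcripts were somewhat higher, as were most abundant transcripts. Of all 231 genes at 500 CPM or more, 65.8% were called higher and 7.79% lower, with a median of 0.42. Whether photosynthesis genes rose beyond other genes of their level was not tested. Of 38 nuclear photosystem and light-harvesting genes, all tested, 21 rose and 2 fell, with a median of 0.31. With upper-quartile scaling 10 rose and 3 fell, with library totals 5 and 5 with a median of -0.02, and 12 rose without WT replicate 1. Calvin cycle and Rubisco small subunit genes had 14 of 18 higher and 1 lower (median 0.49), and 8 and 6 higher with upper-quartile scaling and library totals. RCA (AT2G39730), Rubisco activase, stood at 8480, 9000 and 8820 CPM in WT and at 17800, 14000 and 15300 in emf1, 1.79-fold higher. RBCS1A (AT1G67090), a Rubisco small subunit gene, stood at 10100, 10200 and 10500 CPM in WT and at 16800, 16300 and 15500 in emf1. RPE (AT5G61410), ribulose-phosphate epimerase, rose 2.18-fold, the most of the list. RBCS2B (AT5G38420), another small subunit gene, is the 1 that fell, from 2650 ± 287 to 1680 ± 361 CPM.

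Of the light-harvesting genes, LHCB1.1 (AT1G29920) went from 6470 ± 682 to 11500 ± 1080 CPM and LHCB1.2 (AT1G29910) from 5840 ± 529 to 4400 ± 100, a fall that did not pass without WT replicate 2 (adjusted p = 0.0959, edgeR quasi-likelihood). These loci and LHCB1.3 share near-identical sequence, so their separate levels are uncertain. LHCB1.3 (AT1G29930), the gene with the highest CPM in both genotypes, was at 19200 ± 208 CPM in WT and 24600 ± 872 in emf1, a rise that upper-quartile scaling (adjusted p = 0.0912, edgeR quasi-likelihood) and library totals (adjusted p = 0.807, edgeR quasi-likelihood) ended. RCA and LHCB1.3 also have a tested neighbour over them on the other strand. Tetrapyrrole and chlorophyll synthesis genes had 13 of 20 higher and 3 lower (median 0.39), and 7 higher with library totals. HEMA2 (AT1G09940), a glutamyl-tRNA reductase gene, rose from 16.1 ± 1.91 to 65.7 ± 17.4 CPM. AT2G47450, entered in this list by the symbol CAO, rose from 362 ± 26 to 687 ± 43.3 CPM. That locus encodes a chloroplast signal recognition particle subunit, not chlorophyllide a oxygenase, so the list counts include a gene outside its role. GLK1 (AT2G20570), a transcription factor that activates photosynthesis genes, fell, from 223, 155 and 215 CPM in WT to 57.7, 63.9 and 39 in emf1. The labelled triple mutant was lower than emf1 in these groups. In the photosystem list 34 of 38 members were higher in emf1 than there and 0 lower. The counts were 17 of 18 and 0 in the Calvin list, and 16 of 20 and 0 in the tetrapyrrole list. Of all tested genes, 20.5% were higher in emf1 than in the labelled triple mutant and 23.6% lower. Whether these lists differed there from other genes of their level, or with another scaling, was not tested. The photosystem list's summed level was 94900 to 112000 CPM in WT, 123000 to 139000 in emf1 and 80400 to 98700 in the labelled triple mutant.

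The lowest list median was that of glucosinolate synthesis, which makes the sulfur-rich defence compounds of the mustard family. All 28 tested members changed, 27 of them lower, with a median of -4.05 (-5.46 without emf1 replicate 2). MYB28 (AT5G61420), a regulator of the aliphatic branch, stood at 79.9, 53.5 and 77.8 CPM in WT and at 3.86, 6.7 and 1.33 in emf1, 17.8-fold lower. Its paralog MYB29 (AT5G07690) stood at 40.6, 33.6 and 42.6 CPM in WT and at 0.0772, 1.16 and 0.178 in emf1, a log2 fold change of -6.27 (-8.11 without emf1 replicate 2). CYP79F1 (AT1G16410), which starts the aliphatic core pathway, was at 195, 195 and 196 CPM in WT and at 0.54, 9.32 and 0.356 in emf1, 57.3-fold lower, with a log2 fold change of -5.78 (-8.63 without emf1 replicate 2). MAM1 (AT5G23010), of side-chain elongation, fell from 222 ± 22.2 to 14.3 ± 16.9 CPM, 15.5-fold, with 33.8 CPM in emf1 replicate 2 and 5.09 and 4.09 in the others. The log2 fold change of MAM1, -3.94, was -5.50 without emf1 replicate 2. CYP79B2 (AT4G39950), at the start of the indole branch, fell less, from 78.1 ± 18.7 to 16.9 ± 10.4 CPM. The rise was that of MYB51 (AT1G18570), an indole branch regulator, at 2.6, 7.02 and 4.21 CPM in WT and 51.9, 10.3 and 9.69 in emf1, which was called in 0 of the fits without WT replicate 1, WT replicate 3 or emf1 replicate 1. Of these 28 genes 3 were lower in emf1 than in the labelled triple mutant and 0 higher.

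Flavonoid and anthocyanin genes fell in 16 of 18 tested members and rose in 1 (median -2.56). Their summed level was 387 to 562 CPM in WT, 159 to 230 in emf1 and 119 to 182 in the labelled triple mutant. Of the 18, 6 were higher in emf1 than in the labelled triple mutant and 0 lower. CHS (AT5G13930), chalcone synthase at the head of the pathway, stood at 205, 144 and 166 CPM in WT and 27.3, 53.6 and 19.5 in emf1, 5.13-fold lower. DFR (AT5G42800), of the late anthocyanin steps, was at 8.16, 11.2 and 12.6 CPM in WT and 0.232, 1.75 and 0.178 in emf1, a log2 fold change of -3.81 (-5.54 without emf1 replicate 2). PAP2 (AT1G66390), a MYB activator of anthocyanin synthesis, had 1.09, 0.061 and 0.44 CPM in WT and no count in emf1, at least 6.7-fold lower. The level of PAP2 in WT rested mostly on WT replicate 1, and its fitted log2 fold change of -5.96 was -4.88 without it. The call of PAP2 was lost with only emf1 and WT fitted (adjusted p = 0.0511, edgeR quasi-likelihood). TTG1 (AT5G24520), the WD40 protein shared by pigment and trichome regulation, is the 1 that rose, from 32.8 ± 4.79 to 53 ± 6.92 CPM.

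Iron uptake and sulfur-deficiency genes fell to low levels in emf1, and iron storage genes rose. Of 24 iron and sulfur nutrition genes, all tested, 18 fell and 3 rose (median -3.20). Of the 24, 6 were higher in emf1 than in the labelled triple mutant and 1 lower. IRT1 (AT4G19690), the iron transporter of the root surface, stood at 43.2, 20.3 and 19.9 CPM in WT and had no count in any emf1 library, at least 351-fold lower. NAS2 (AT5G56080), which makes the metal chelator nicotianamine, stood at 13.3, 9.52 and 11.4 CPM in WT and had none in emf1, a fall of at least 144-fold. FIT (AT2G28160), the bHLH regulator of iron uptake, fell from 4.99 ± 2.19 to 0.593 ± 0.206 CPM, and FRO2 (AT1G01580), the root ferric reductase gene, from 13.6 ± 6.53 to 0.787 ± 0.07. FER1 (AT5G01600), a ferritin gene for iron storage, stood at 60, 73.5 and 48.7 CPM in WT and at 441, 473 and 566 in emf1, 8.13-fold higher, and FER4 (AT2G40300) rose 3.68-fold. On the sulfur side, LSU1 (AT3G49580), a marker of low sulfur, fell from 12.9 ± 3.3 to 0.435 ± 0.404 CPM and SDI1 (AT5G48850), a repressor of glucosinolate synthesis under low sulfur, from 42.9 ± 16.5 to 1.85 ± 1.91. Without emf1 replicate 2 the log2 fold change of LSU1 went from -4.83 to -5.82 and that of SDI1 from -4.49 to -5.74. IRT1 and FRO2 are root genes, and root markers fell as well.

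Of 24 tested root tissue markers 20 fell and 1 rose (median -2.62). Their summed level was 286 to 372 CPM in WT, 134 to 214 in emf1 and 161 to 210 in the labelled triple mutant. AGP30 (AT2G33790), a root arabinogalactan protein gene, stood at 7.43, 5.86 and 5.34 CPM in WT and had no count in emf1 or in the labelled triple mutant, at least 78.5-fold lower in emf1. COBL9 (AT5G49270), needed for root hair growth, stood at 3.93, 3.54 and 2.45 CPM in WT and had counts in emf1 replicate 2 only (0.291 CPM), 34.1-fold lower. Its fitted log2 fold change was -4.87, and -8.58 without that library. CASP1 (AT2G36100), of the Casparian strip in the root endodermis, stood at 11.9, 11.9 and 10.3 CPM in WT and 1.62, 2.4 and 2.93 in emf1. PLT1 (AT3G20840), of the root stem cell niche, fell from 2.96 ± 0.956 to 0.327 ± 0.247 CPM, -3.10 on the log2 scale (-3.71 without emf1 replicate 2). SCR (AT3G54220), which is expressed in the root endodermis and also in leaf bundle sheath, was at 46, 32.6 and 39.9 CPM in WT and 46.2, 37.1 and 33.6 in emf1 and did not pass the test (log2 fold change -0.02, SE 0.13), though it was called lower with library totals (-0.36, adjusted p = 0.0322, edgeR quasi-likelihood). The rise was that of MYB93 (AT1G34670), an endodermal gene of lateral root initiation, from 2.42 ± 0.663 to 4.66 ± 1.09 CPM, a call lost without WT replicate 1, emf1 replicate 1 or emf1 replicate 3, and with upper-quartile scaling or library totals. The share of root in the harvested seedlings is not given by the labels, and its part in these falls was not tested. CASP1 has a tested neighbour over it on the other strand.

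Vascular markers fell without exception among the tested members, 17 of 17 lower with a median of -3.51. XCP2 (AT1G20850), a xylem protease gene, stood at 48.3, 59 and 47.5 CPM in WT and at 0.309, 3.86 and 0.711 in emf1, 31.7-fold lower. Its log2 fold change of -4.93 was -6.59 without emf1 replicate 2. IRX3 (AT5G17420), a cellulose synthase subunit of secondary walls, stood at 11.2, 11.9 and 12.3 CPM in WT and 0.232, 0.801 and 0.178 in emf1, with -4.79 on the log2 scale (-5.69 without emf1 replicate 2). Phloem markers were also lower. SUC2 (AT1G22710), the companion cell sucrose transporter gene, stood at 62, 108 and 94.8 CPM in WT and at 28, 28 and 21.5 in emf1, 3.42-fold lower. SEOR1 (AT3G01680), a sieve element protein gene, fell from 30.3 ± 3.79 to 4.52 ± 0.685 CPM. ATHB8 (AT4G32880), of early procambium, fell from 46.1 ± 1.58 to 10.3 ± 4.1 CPM. The summed level of the list was 438 to 542 CPM in WT, 104 to 136 in emf1 and 88.4 to 139 in the labelled triple mutant. IRX3 has a tested neighbour over it on the other strand.

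Mitotic cell cycle genes fell in 21 of 23 members, each by at least 2-fold, and rose in 1 (median -2.48, and -3.25 without emf1 replicate 2). CYCB1;2 (AT5G06150), a mitotic cyclin gene, stood at 16.4, 19 and 20.3 CPM in WT and at 0.695, 5.46 and 1.51 in emf1, 7.27-fold lower and -2.83 on the log2 scale (-4.00 without emf1 replicate 2). KN (AT1G08560), the cytokinesis syntaxin gene, stood at 32.9, 33.4 and 35.9 CPM in WT and 2.93, 12.2 and 2.84 in emf1, -2.49 on the log2 scale (-3.47 without emf1 replicate 2), with a tested neighbour over it on the other strand. In both, emf1 replicate 2 was the highest emf1 library and still below every WT library. CYCD3;3 (AT3G50070), a D-type cyclin gene, is the 1 that rose, from 24.8 ± 1.22 to 36.4 ± 3.29 CPM, a call that library totals ended. The summed level of the list was 338 to 363 CPM in WT, 142 to 210 in emf1 and 89.5 to 139 in the labelled triple mutant.

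**Figure D5:**
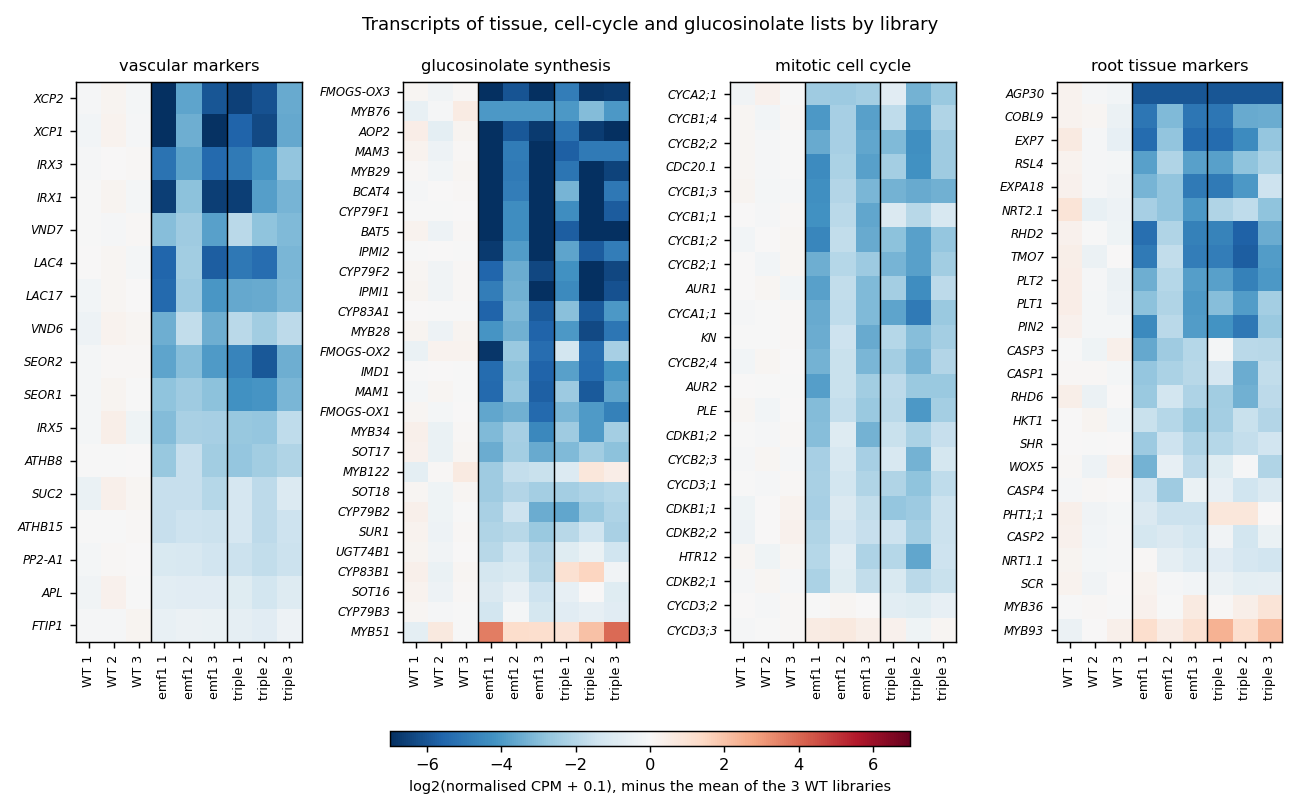
Log2 of normalised CPM plus 0.1, minus the mean of the 3 WT libraries, for every tested member of the vascular, glucosinolate, mitotic and root lists (rows) in WT, emf1 and the labelled triple mutant (triple), each library a column. Blue is below WT. Nearly all rows are blue in emf1, the column of emf1 replicate 2 is paler than those of replicates 1 and 3 in most rows, and MYB51, CYCD3;3 and MYB93 are above WT.

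Most epidermal markers fell. Of 26 trichome, stomata and epidermis markers, all tested, 20 fell and 4 rose (median -1.21). GL1 (AT3G27920), the MYB gene of trichome initiation, stood at 2.42, 1.77 and 1.88 CPM in WT and 0.232, 0.51 and 0 in emf1, -2.92 on the log2 scale (-3.86 without emf1 replicate 2). SPCH (AT5G53210), which starts the stomatal lineage, fell from 9.29 ± 0.543 to 4.34 ± 0.79 CPM, and PDF1 (AT2G42840), an epidermal layer marker, from 284 ± 6.91 to 69.3 ± 46.3, -2.03 on the log2 scale (-2.65 without emf1 replicate 2). Wax genes went both ways. CUT1 (AT1G68530), a fatty acid elongase gene, rose from 199, 207 and 202 CPM in WT to 466, 388 and 412 in emf1, and CER3 (AT5G57800) rose 2.07-fold. CER1 (AT1G02205), needed for alkane formation, fell from 21.4 ± 2.33 to 2.1 ± 2.79 CPM, with 5.31 CPM in emf1 replicate 2 and 0.618 and 0.356 in the others, a log2 fold change of -3.28 (-5.32 without emf1 replicate 2). It stood at 10.4 ± 3.68 CPM in the labelled triple mutant. CER4 (AT4G33790), a wax alcohol synthesis gene, fell from 1.86 ± 0.435 CPM to a single count over the emf1 libraries, 72.2-fold with a counting interval of 12.4 to 2820. The fitted log2 fold change of CER4 was -5.74, and -7.76 without emf1 replicate 1, which held that count.

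Among hormone genes, auxin synthesis, transport and response fell in 23 of 33 tested members and rose in 2 (median -0.98). Of the 33, 12 were higher in emf1 than in the labelled triple mutant and 0 lower. IAA6 (AT1G52830), an auxin-induced repressor gene, stood at 1.03, 0.977 and 1 CPM in WT and had no count in emf1, at least 12.7-fold lower. IAA2 (AT3G23030), of the same Aux/IAA family, rose from 54.7 ± 18.9 to 144 ± 12.9 CPM. Brassinosteroid and gibberellin genes were near balance, 9 higher and 10 lower of 29 (median 0.07, -0.10 with upper-quartile scaling and -0.27 with library totals). BRI1 (AT4G39400), the brassinosteroid receptor gene, rose from 143, 174 and 140 CPM to 272, 284 and 392. BR6OX1 (AT5G38970), of the last steps of brassinosteroid synthesis, stood at 1.45, 1.71 and 1.32 CPM in WT and had no count in emf1, at least 18.9-fold lower.

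Jasmonate genes split, 8 higher and 6 lower of 23 tested, with a median of 0.13 that turned to -0.04 with upper-quartile scaling, -0.19 with library totals and -0.01 without emf1 replicate 2. Both late jasmonate responders of vegetative storage fell, VSP1 (AT5G24780) from 4.01 ± 0.286 to 0.209 ± 0.028 CPM and VSP2 (AT5G24770) from 6.02 ± 3.52 to 0.447 ± 0.0618 CPM. JAZ9 (AT1G70700), a repressor of the pathway, rose from 56.9 ± 8.62 to 119 ± 1.87 CPM. Salicylic acid and pathogen defence genes had 6 of 14 higher and 3 lower (median 0.34), with 3 higher under library totals. FMO1 (AT1G19250), of systemic immunity, fell from 2.58 ± 0.46 to 0.085 ± 0.0891 CPM, 30.4-fold with a counting interval of 10.9 to 160. Its log2 fold change of -4.88 was -5.81 without emf1 replicate 3 and -4.20 without emf1 replicate 2. NPR3 (AT5G45110), a salicylic acid receptor gene, rose from 25.8 ± 12 to 70.4 ± 9.05 CPM. Abscisic acid, cold and drought genes had 4 of 24 higher and 12 lower (median -0.35). The cold and drought effector gene RD29A (AT5G52310) stood at 117, 116 and 141 CPM in WT and 9.65, 30.1 and 7.64 in emf1, -2.97 on the log2 scale (-3.75 without emf1 replicate 2), while the NAC gene RD26 (AT4G27410) rose from 17.3 ± 7.55 to 94.2 ± 11.

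Clock genes were little changed, 4 higher and 3 lower of 16 (median 0.10, -0.07 with upper-quartile scaling, -0.24 with library totals and -0.04 without emf1 replicate 1), and 1 was lower in each of the fits without WT replicate 1, emf1 replicate 2 or emf1 replicate 3. LHY (AT1G01060), a morning gene, stood at 165, 116 and 143 CPM in WT and 86.8, 66 and 46.1 in emf1, and PRR7 (AT5G02810), a daytime gene, rose from 114 ± 12.2 to 244 ± 34.9 CPM. Anther, tapetum and pollen markers were near absent. Of 19 members 3 had enough counts to be tested and 1 of these rose, MYB80 (AT5G56110) of tapetum development, from 1 count over the WT libraries, in WT replicate 1, to 0.27 ± 0.11 CPM. Its fitted log2 fold change was 3.23 with that library and 4.97 without it. Their summed level was 5.53 to 6.71 CPM in WT and 4.8 to 8.26 in emf1.

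Genes often used as references were called about as often as all tested genes, 63.6% against 64.6%. Of 11 such genes 4 were higher and 3 lower (6 lower with upper-quartile scaling and 7 with library totals). GAPC2 (AT1G13440), cytosolic glyceraldehyde-3-phosphate dehydrogenase, stood at 1460, 1440 and 1490 CPM in WT and at 219, 174 and 143 in emf1, 8.19-fold lower (log2 fold change -3.03, SE 0.13, adjusted p = 9.1e-09, edgeR quasi-likelihood). In the labelled triple mutant, with the same kit as emf1, it was at 1190 to 1410 CPM. ACT2 (AT3G18780), a vegetative actin gene, rose from 834, 826 and 722 CPM to 2300, 1900 and 2080, and ACT7 (AT5G09810) fell from 535 ± 15.8 to 378 ± 23.7. UBQ10 (AT4G05320), a polyubiquitin gene, rose from 1280 ± 54.9 to 1940 ± 103 CPM.

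Outside the lists, the largest rises included regulators of growth, ethylene and defence. RTFL21 (AT1G67265), of a family of small growth-restricting peptides, had 1 count over the 3 WT libraries and stood at 2.62, 6.33 and 12.3 CPM in emf1, 348-fold higher with a counting interval of 59.3 to 13200. Its fitted log2 fold change of 7.92 was 9.71 without WT replicate 2, which held the count, and 7.29 without emf1 replicate 3. BCB (AT5G20230), a blue copper-binding protein gene, went from 2.42, 4.21 and 2.2 CPM to 630, 336 and 750, 194-fold higher. ACS7 (AT4G26200), an ethylene synthesis enzyme gene, stood at 1.33, 0.977 and 0.816 CPM in WT and at 79.5, 59.6 and 51 in emf1, and the transcription factor gene WRKY49 (AT5G43290) at 0.544, 1.1 and 1.13 in WT and 100, 69.7 and 64.9 in emf1. Of these, ACS7 and WRKY49 were also above the labelled triple mutant, at 17.1 ± 7.07 and 9.27 ± 8.73 CPM there (by 1.88 and 3.10 on the log2 scale, adjusted p = 0.000226 and 0.000136, edgeR quasi-likelihood). EARLI1 (AT4G12480), a cell wall lipid-transfer type protein gene, rose 71.5-fold to 356 ± 96.8 CPM, against 149 ± 37.4 in the labelled triple mutant. DTX1 (AT2G04040), a multidrug efflux family gene with a tested neighbour over it on the other strand, and PDF1.4 (AT1G19610), a defensin gene, rose 101-fold and 56-fold. PP2-B14 (AT1G56250) rested on emf1 replicate 1, at 26.4 CPM against 0.728 and 1.96 in the others, and was not called without it (log2 fold change 2.95 in place of 5.82, adjusted p = 0.117, edgeR quasi-likelihood), and was 6.47 without emf1 replicate 2.

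The largest falls outside the lists included MLP28 (AT1G70830), of the major latex protein family, from 161, 185 and 158 CPM in WT to 0.154, 1.75 and 0.533 in emf1, 207-fold lower and -7.64 on the log2 scale (-8.86 without emf1 replicate 2). AK3 (AT3G02020), an aspartate kinase gene of amino acid synthesis, went from 90.3 ± 11.8 to 0.466 ± 0.732 CPM, with 1.31 CPM in emf1 replicate 2, 0.0889 in replicate 3 and none in replicate 1. Its log2 fold change of -7.48 was -10.74 without emf1 replicate 2 and -6.88 without emf1 replicate 1. MLP28 was lower in emf1 than in the labelled triple mutant (6.47 ± 4.26 CPM, adjusted p = 0.00082, edgeR quasi-likelihood), and AK3 did not pass against it (3 ± 3.82 CPM, adjusted p = 0.0536, edgeR quasi-likelihood). CYP82C4 (AT4G31940), an iron-deficiency cytochrome P450 gene, fell from 7.23 ± 1.98 CPM to a single count over the emf1 libraries, 281-fold with a counting interval of 48.9 to 10900. Its fitted log2 fold change of -7.69 was -9.72 without emf1 replicate 1, which held that count, and -7.11 without emf1 replicate 2. BGLU35 (AT1G51470), a beta-glucosidase gene, fell from 14.2 ± 2.01 CPM to counts in emf1 replicate 2 only (0.146 CPM; -7.86 on the log2 scale, and -10.68 without it), and near-identical sequence in BGLU34 makes its level uncertain. AK3 has a tested neighbour over it on the other strand.

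By RNA class, protein-coding loci took 99.3% of the counts in WT and 98.9% in emf1. Nuclear ribosomal RNA took 0.234%, 0.369% and 0.279% in the WT libraries and 0.594%, 0.685% and 0.829% in the emf1 libraries. It took 0.987% to 1.68% in the labelled triple mutant, which shares the kit of emf1, and a mean of 0.266% in lhp1 and 0.264% in ebs shl, which share the kit of WT. Primary miRNA loci took 0.0117%, 0.0121% and 0.0132% in WT and 0.00666%, 0.00794% and 0.00658% in emf1, and the labelled triple mutant was at 0.00694% to 0.00742%. For both classes the libraries did not overlap (p = 0.1 in an exact two-sided permutation test, the smallest p that 3 against 3 allows, with 11 classes compared and no p adjusted). Among 21 tested miRNA loci 2 were higher and 12 lower in emf1 (median -1.32). Among all tested genes 30.7% were higher and 33.9% lower, and among those between 0.5 and 5 CPM 11.8% and 51.3%. Whether miRNA loci differed from other genes of their level was not tested. The RNA kits differ between the genotypes, and their part in the shares of counts cannot be told apart from the genotype.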

How the data were processed

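Messenger RNA of whole seedlings was sequenced on an Illumina instrument after stranded library preparation, per the labels' protocols. The deposited values are raw counts of reads per locus for 33602 loci, 1 file per library, and the authors used TopHat2 2.1.1, HTSeq and edgeR with the TAIR10 build, per the submitters' processing notes. The strand setting of the counting and other versions are not given in the sources used here. Reads were counted without molecular identifiers, so counting intervals (exact, 95%) and floors cover counting error only.

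Counts of all 15 libraries were fitted together in R 4.3.3 with edgeR 4.0.16 (filterByExpr, TMM factors, 1 mean per genotype, quasi-likelihood F test, Benjamini-Hochberg over 20477 loci), with DESeq2 1.42.0, limma 3.58.1 (voom), other scalings, filters, an offset for GC content and exon length, a replicate block and each library left out as alternatives. The fit was tested on simulated data in which 200 genes were changed, as many up as down, and the others held equal. It recovered 70% of 2-fold and 95% of 4-fold changes, with 3 false calls. With so few genes changed, the simulation cannot show how the scaling behaves where most genes differ. TMM factors were 1.035 to 1.078 in WT and 0.817 to 0.873 in emf1. Where emf1 or WT held no count, a ratio is a lower bound that takes 3 counts as the group's total, and with 1 to 3 counts it has an exact counting interval. Chi-square over genes per degree of freedom was 8.41 to 20.7 between WT libraries and 17.8 to 21 between emf1 libraries, so none is a duplicate.

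The comparison and the lists (652 loci in 30 lists, 15 names left out for want of a locus) were chosen with earlier results of these data known. Named genes are the 4 mutated genes, the 15 highest and 15 lowest log2 fold changes among called genes with a symbol, at least 5 CPM in the higher group and groups that do not overlap, the 5 most abundant genes per genotype, and for each list at most 6 called members with the largest changes. The rule gives 193 genes, of which the text names part, and 34 of them have a tested neighbour over them on the other strand. Other genes named (AG, AP1, LFY, FT, EM1, SUC2, SEOR1, ATHB8, SCR and further list members) were chosen after their values were seen. Symbols, gene order, GC content and length came from the TAIR10.1 annotation, a build other than that of the counts, so no coordinates and no sequences are given. Near copies had 95% identity over 50% of the length in BLAST 2.17.0. A result on 1 list member is not reported here.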

Additional observations from a re-analysis of the deposited data

How the results depend on the processing

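The number of genes called was 12042 to 13153 with each emf1 or WT library left out (13153 without emf1 replicate 2 and 12641 without WT replicate 2), and 12109 to 13660 under the other alternatives, against 13231. The 12109 came from the fit of only emf1 and WT. Calls lost in that fit included those of SEP2, AGL71, DOG1, HSFA2, PAP2 and SnRK1.1 (adjusted p = 0.0511 to 0.111, edgeR quasi-likelihood). The library left out also moved the balance of directions, with 6862 higher and 6291 lower without emf1 replicate 2 and 6511 and 6130 without WT replicate 2. With a minimum of 1 CPM in 3 libraries 6760 were higher and 6259 lower. Library totals gave 3631 higher in place of 6284, and of 13660 calls there 10578 were shared with the main result in the same direction and 6 opposite. TMM factors were lower in every emf1 than in every WT library. In the labelled triple mutant, with the kit of emf1, they were 0.897 to 0.933. In lhp1 and ebs shl, with the kit of WT, they were 1.077 to 1.146. Which scaling is right cannot be told from these counts. EBS, not called in the main result, had log2 fold changes of -0.142 to 0.023 with a library left out. It changed sign without WT replicate 2 (adjusted p = 0.912, edgeR quasi-likelihood) and was called lower with library totals (-0.42), and the cause was not tested.

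Replicate numbers did not pair the libraries of emf1 and WT. Deviations of libraries with the same number correlated at 0.079, -0.084 and -0.063, and the highest correlation was 0.217, between emf1 replicate 3 and WT replicate 2. A fit with the replicate number as a block called 12922 genes, and 12862 together with the GC and length offset. SnRK1.1 was not called under the block (adjusted p = 0.0517, edgeR quasi-likelihood). Against the labelled triple mutant the count was 7883 to 9140 over its alternatives, with 8593 under the block, against 9022. The planned count of promoter motifs was not run, because no promoter table of the build was at hand. At these depths a gene under about 3 counts per genotype could not be told from absence.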

Other observations

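Genes were also grouped by the letters that open their symbol, for the 62 prefixes with at least 15 tested members. These groups were formed after the data were seen, are not curated families, and partly overlap the lists above. The highest median log2 fold change was that of CRK genes, cysteine-rich receptor-like kinases, with 19 of 26 higher and 6 lower (median 1.58, from -3.32 for CRK25 to 5.18 for CRK13). ERF transcription factor genes followed (12 higher and 2 lower of 21, median 0.80), then PEX genes for peroxisome formation (15 higher and 0 lower of 18, median 0.69) and WRKY genes (26 higher and 12 lower of 57, median 0.66). ATG genes, which act in autophagy, had 10 higher and 0 lower of 17 (median 0.43).

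At the other end, SAUR genes, small auxin-induced growth genes, had 1 higher and 12 lower of 15 (median -2.67). Expansin genes (EXPA), which loosen cell walls, had 1 higher and 13 lower of 15 (median -2.56). UMAMIT amino acid transporter genes had 4 higher and 26 lower of 35, with a median of -2.23 and values from -6.47 for UMAMIT14 to 3.47 for UMAMIT33. CLE genes, which encode signalling peptides, had 0 higher and 11 lower of 16 (median -1.58), and IQD genes, for calmodulin-binding scaffold proteins, 0 higher and 14 lower of 22 (median -1.28). No explanation of these groups was tested.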
